A study of Homo sapiens with 6 samples.

Results

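The apolipoprotein L (APOL) genes and the phospholipid scramblase (PLSCR) genes encode membrane-active and lipid-binding proteins, and several of them are known as interferon-stimulated genes. The 8 genes described here, APOL1, APOL2, APOL3, APOL4, APOL6, PLSCR1, PLSCR3 and PLSCR4, were taken by symbol from the 57736 Ensembl genes of the deposited count table, and all 8 had a row. PC3 is an androgen-independent prostate cancer line, and its RNA was sequenced from 3 libraries of control cells (siCTRL, genotype field Mic60 WT) and 3 of cells silenced for Mic60 (siMic60, genotype field Mic60 KO). Both groups share the cell line and the library kit, and no other treatment is named. The labels do not say how long the cells were silenced, whether more than 1 siRNA against Mic60 was used, or whether replicates were separate cultures. The study's general statement on statistics speaks of independent biological replicates without naming these libraries, and each p-value rests on the spread between them.

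APOL proteins are named for their founding member, APOL1, which circulates in plasma on high-density lipoprotein particles and lyses trypanosomes by forming pores. The other family members have no secretory signal and stay inside the cell. PLSCR proteins are palmitoylated membrane proteins that bind calcium and were first described as moving phospholipids between the leaflets of a bilayer. PLSCR1 also enters the nucleus and is a known interferon-stimulated gene with antiviral activity, whereas PLSCR3 resides at mitochondria, where it has been tied to the movement of cardiolipin, the lipid typical of the inner mitochondrial membrane. Mic60, the product of IMMT, holds together the MICOS complex at the junctions of that same membrane.

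QuantSeq libraries read transcripts at the 3′ end, so a count tracks transcript number and was not divided by transcript length. Total counts ran from 6644495 to 8779877 per library. Levels are given as CPM, the counts of a gene relative to the TMM-normalized size of its library. Calls rest on edgeR's quasi-likelihood test, fitted on the 14653 genes that reached 10 counts in 3 or more libraries, with a Benjamini-Hochberg adjusted p under 0.05 as the threshold. IMMT itself stood at 88.9, 91.2 and 90.4 CPM in siCTRL and at 5.83, 7.34 and 8.53 CPM in siMic60 cells, lower as labelled. Epithelial keratins and EPCAM were present, the 5 epithelial markers summing to 1501 to 2081 CPM in siCTRL and 1081 to 1110 CPM in siMic60 libraries, and KLK3, an androgen-driven prostate gene, had no count in any library. Of 9 leukocyte markers 6 had no count in any library, and the 9 together reached 0.959 to 1.48 CPM in siCTRL and 0.346 to 1.35 CPM in siMic60 libraries. Of the endothelial markers, CDH5, VWF and TEK had no count, and the 4 with a row together lay between 1.80 and 4.07 CPM in siCTRL and between 1.96 and 3.53 CPM in siMic60 cells. The 3 hepatocyte markers summed to at most 0.460 CPM in any library, with ALB and TTR at 0. The 5 fibroblast markers, of which DCN was at 0, summed to 277 to 371 CPM in siCTRL and 46.6 to 65.8 CPM in siMic60 cells, nearly all of it COL1A1. The 5 luminal prostate markers summed to 26.0 to 29.8 CPM in siCTRL and 47.2 to 53.4 CPM in siMic60 libraries. The epithelial, fibroblast and luminal sums separated the groups, and their part in the results was not tested, while the leukocyte, endothelial and hepatocyte sums overlapped. In bulk RNA, more cells that express a gene and more RNA per cell cannot be told apart.

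Most members of both families were higher in the cells silenced for Mic60. Of the 8 genes, 7 could be tested, 6 were called higher in siMic60 cells and 0 lower. Of all tested genes, 17.7% were called higher and 17.9% lower. The members were chosen with earlier results of these data known, so this contrast is descriptive only. At an unadjusted p under 0.05 in edgeR, 1 member was lower (PLSCR3), and DESeq2 called 1 lower. PLSCR4, PLSCR1 and APOL6 rose more than 5-fold, and APOL1, APOL2 and APOL3 rose between 2.95-fold and 4.23-fold. PLSCR3 was the exception among the tested members, with a level that in siMic60 cells was below that of siCTRL cells without passing the test. APOL4 was too low to be tested. The median log2 fold change of the 7 tested members was 2.08, beside 0.0022 over all tested genes. For all 7 the siMic60 libraries lay wholly to 1 side of the siCTRL libraries, as they did for 47.9% of all tested genes. Of the 7, PLSCR4 reached the minimum count only through its siMic60 libraries, since it had 6, 20 and 12 counts in siCTRL.

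**Figure D1:**
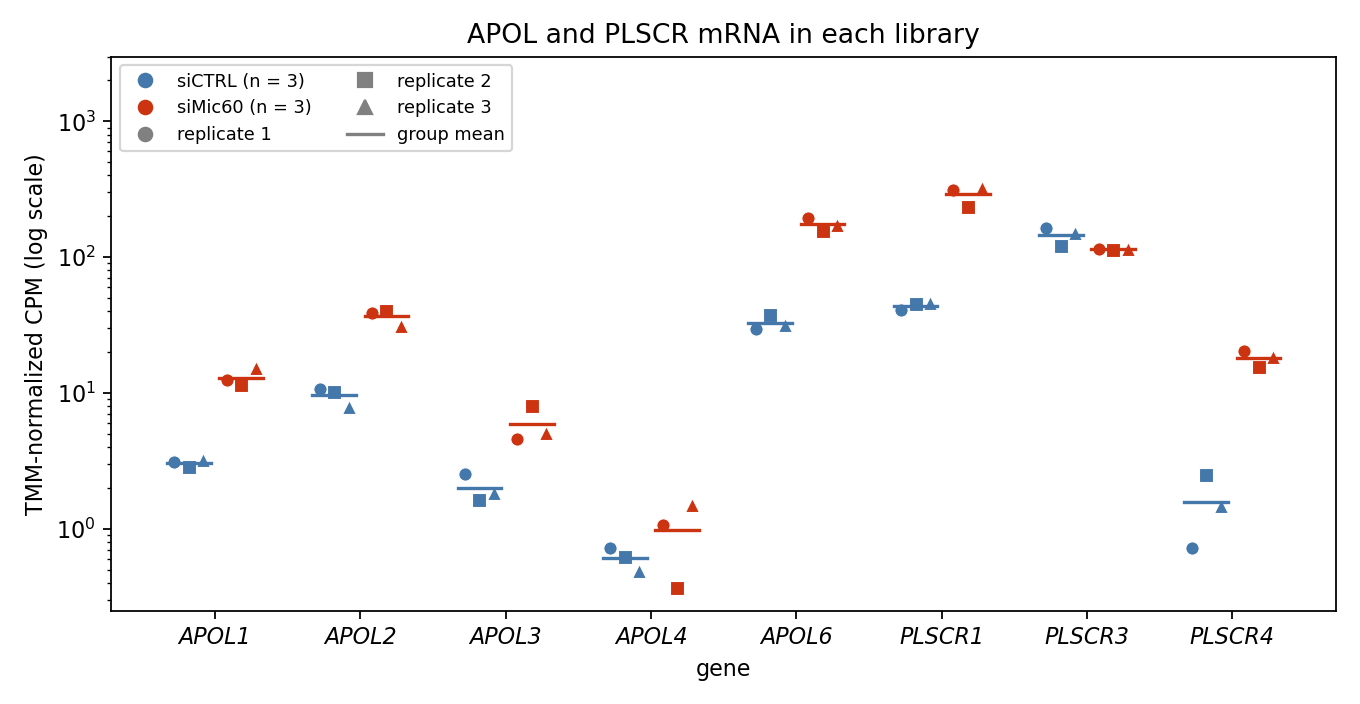
TMM-normalized CPM on a log axis for the 8 genes, with 1 point per library (siCTRL blue, siMic60 red, symbol shape by replicate) and a line at each group mean, n = 3 per group. All red points lie above all blue points for APOL1, APOL2, APOL3, APOL6, PLSCR1 and PLSCR4, below them for PLSCR3, and around them for APOL4.

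Among the APOL genes, APOL6 was both the most abundant and the one with the largest fitted fold. APOL6 (ENSG00000221963) encodes an intracellular protein with a BH3-like motif that promotes cell death when overexpressed. It stood at 29.6, 37.6 and 31.9 CPM in the siCTRL libraries and at 196, 157 and 173 CPM in the siMic60 libraries. The lowest siMic60 library was thus far above the highest siCTRL library. The fold was 5.30 (95% interval 4.32 to 6.51, log2 fold change 2.41, standard error 0.14, adjusted p = 8.03e-09, edgeR quasi-likelihood test), the 128th largest increase by rank among the genes tested.

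APOL1 (ENSG00000100342) encodes the secreted, trypanolytic protein. It had 26, 23 and 26 counts in siCTRL and 81, 93 and 132 counts in siMic60 libraries, or 3.12, 2.88 and 3.21 against 12.4, 11.4 and 15.2 CPM. The control libraries were nearly level, while siMic60 replicate 3 was the highest of its group. APOL1 rose 4.23-fold (95% interval 2.99 to 5.99, adjusted p = 9.01e-06, edgeR).

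APOL2 (ENSG00000128335), its intracellular neighbor, was at 10.7, 10.3 and 7.89 CPM in siCTRL and at 39.1, 40.5 and 31.2 CPM in siMic60 cells. Replicate 3 was the lowest library of either group, and the groups did not overlap. APOL2 rose 3.84-fold (95% interval 2.97 to 4.96, adjusted p = 8.49e-07, edgeR), and its interval overlaps that of APOL1.

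APOL3 (ENSG00000128284), an intracellular protein that dissolves bacterial membranes in interferon-treated cells, had 21, 13 and 15 counts in siCTRL and 30, 66 and 44 counts in siMic60 libraries. In CPM these were 2.52, 1.63 and 1.85 against 4.60, 8.08 and 5.07. The siMic60 libraries were unequal, replicate 2 being the highest and replicate 1 the lowest. APOL3 rose 2.95-fold (95% interval 1.79 to 4.87, adjusted p = 0.00224, edgeR).

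APOL4 (ENSG00000100336), another intracellular member, was near the limit of detection, with 6, 5 and 4 counts in siCTRL and 7, 3 and 13 counts in siMic60 libraries. The groups overlapped, with siMic60 replicate 2 the lowest and siMic60 replicate 3 the highest of all 6 libraries. APOL5 (ENSG00000128313), the family member outside the list, had 0 counts in every library, which allows a level of at most 0.125 CPM in control and 0.126 CPM in silenced cells (3 counts over each group, for counting error only). APOLD1, a more distant endothelial relative, was at 5.63, 3.88 and 3.82 CPM in siCTRL and at 2.45, 3.30 and 2.77 CPM in siMic60 cells and did not pass the test (fold 0.643, 95% interval 0.404 to 1.02, adjusted p = 0.129, edgeR).

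APOL genes are related in sequence, so reads could be shared between copies. In GENCODE 29, of the 50-base words in the last 500 bases of the protein-coding transcripts, 0.771% were shared with another gene for APOL1 (APOL2 and APOL3), 0.197% for APOL2 (APOL1), 0.784% for APOL3 (APOL1), and 0 of 451 words for APOL6. APOL4 shared 0.576% of its words with 5 genes outside the family. Exact sharing at the 3′ end was therefore low for all 5 members, although neither the read length nor the handling of mismatched reads is stated in the sources used here.

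**Figure D2:**
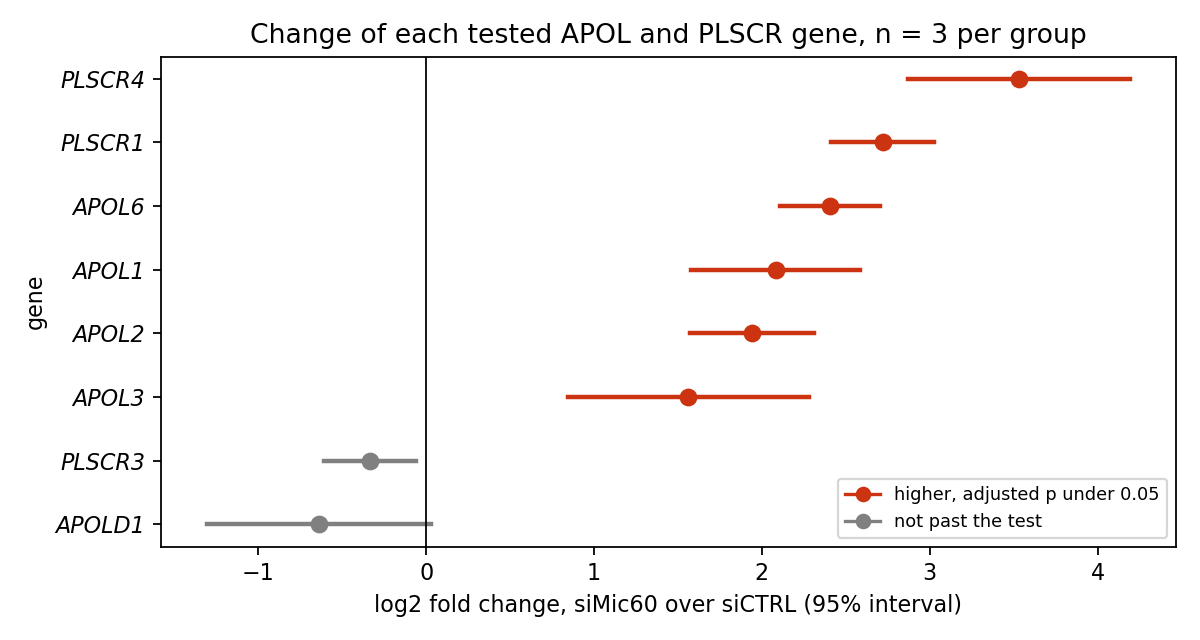
Log2 fold change (siMic60 over siCTRL) with its 95% interval for the 7 tested members and APOLD1, n = 3 libraries per group. The 6 red genes have intervals that begin at 0.84 or higher, while the interval of PLSCR3 lies between −0.61 and −0.06 and that of APOLD1 includes 0.

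Summed over the 5 listed APOL genes, the level was 46.6, 53.0 and 45.4 CPM in siCTRL and 253, 217 and 226 CPM in siMic60 libraries. The group means were 48.3 and 232 CPM, and the groups did not overlap. Because shares within a library need no scaling, the make-up of the family was compared as well. APOL6 supplied 68.3% ± 4.16 of APOL counts in control and 75.4% ± 2.79 in silenced cells (SD, n = 3), and its share was higher in each siMic60 library than in any siCTRL library (exact two-sided permutation test, p = 0.1, below which 3 libraries against 3 cannot go). APOL1 had a share of 6.39% ± 0.859 in control and 5.63% ± 0.969 in silenced cells (SD, n = 3; exact two-sided permutation test, p = 0.3). APOL2 went from 19.9% to 16.0% and APOL3 from 4.18% to 2.59%, each with overlapping libraries (exact permutation p = 0.2 for both). The ratio of APOL2 to APOL1 counts was 3.42, 3.57 and 2.46 in siCTRL and 3.15, 3.56 and 2.05 in siMic60 libraries. These ratios overlapped between the groups (exact permutation p = 0.6 on the log ratio). Since the test cannot go below 0.1, it cannot decide whether the 2 genes respond differently. Among all 5 shares, that of APOL4 also separated the groups, at 1.27% ± 0.241 against 0.419% ± 0.247 (SD, n = 3 each), on 15 counts in siCTRL and 23 in siMic60 cells. Over the 8 shares compared in both families, the lowest Benjamini-Hochberg adjusted permutation p was 0.16, and over the 5 count ratios computed it was 0.167.

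Next, the scramblase genes were examined. Promoters of the 3 listed PLSCR genes are shown as sequence context, and whether their letters bear on the levels was not tested. The RefSeq promoter table (GRCh38.p14) held 3 of the 8 listed genes, namely PLSCR1, PLSCR3 and PLSCR4. The count table was made on hg19, so these positions are not those of the files. Each line gives the 250 bases before the annotated start, on the minus strand, at chr3:146544608-146544857 for PLSCR1 (start 1 of 2, which lie 12 bases apart), chr3:146250616-146250865 for PLSCR4 (start 2 of 2) and chr17:7394526-7394775 for PLSCR3. Capitals mark matches to the motifs described after the sequences.
PLSCR1: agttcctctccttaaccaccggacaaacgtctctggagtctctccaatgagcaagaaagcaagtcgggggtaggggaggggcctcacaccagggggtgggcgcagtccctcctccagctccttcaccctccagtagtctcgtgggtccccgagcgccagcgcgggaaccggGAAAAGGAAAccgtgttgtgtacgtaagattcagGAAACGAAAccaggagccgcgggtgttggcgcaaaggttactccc
PLSCR4: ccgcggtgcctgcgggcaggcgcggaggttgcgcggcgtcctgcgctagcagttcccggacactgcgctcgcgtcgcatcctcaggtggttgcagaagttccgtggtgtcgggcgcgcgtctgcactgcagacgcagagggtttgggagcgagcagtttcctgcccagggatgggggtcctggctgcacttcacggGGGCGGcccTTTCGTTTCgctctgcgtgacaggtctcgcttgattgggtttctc
PLSCR3: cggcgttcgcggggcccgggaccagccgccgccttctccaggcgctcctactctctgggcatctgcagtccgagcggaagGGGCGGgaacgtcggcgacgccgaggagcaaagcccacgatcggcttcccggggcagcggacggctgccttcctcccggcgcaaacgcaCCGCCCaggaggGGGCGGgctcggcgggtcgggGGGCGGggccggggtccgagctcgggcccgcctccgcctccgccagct

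The motif of the interferon-stimulated response element, bound by IRF9 and other IRF factors, was searched on both strands as GAAANNGAAA, which 3.57% of all 35116 RefSeq promoter windows of 300 bases (250 before and 50 after the start) hold. A form with a shorter spacer, GAAANGAAA, was added after the PLSCR1 sequence was seen and is held by 3.12% of the windows. PLSCR1 had the first form 79 bases and the second 45 bases before its start, as GAAAAGGAAA and GAAACGAAA, without overlap. PLSCR4 had the second form 45 bases before its start 2, as TTTCGTTTC, which is GAAACGAAA read on the other strand. PLSCR4 lacked the first form at both starts and the second at its start 1, and PLSCR3 had neither form. The match of PLSCR4 thus rests only on the form that was added later. The window printed for PLSCR4 is the 1 with this match, and its start 1 is not shown. PLSCR5, with 3 counts in all, also had the second form, 164 bases before its start. The STAT site TTCNNNGAA, held by 7.66% of the windows, began 20 bases past start 1 of PLSCR1 and 127 bases before start 1 of PLSCR4, and had no match for PLSCR3. It also lay 58 bases before start 2 of PLSCR2, 228 bases before the start of PLSCR5 and 81 bases before start 2 of APOLD1. Of these 3 genes only APOLD1 could be tested, and it did not pass, so nothing is read from these matches. The GC box GGGCGG, held by 45.0% of the windows, occurred 4 times before the PLSCR3 start, 2 times before start 1 and 1 time before start 2 of PLSCR4, and not in the PLSCR1 windows. The 250 bases shown are 60.0% G and C for PLSCR1, 66.8% for PLSCR4 and 77.2% for PLSCR3, where the median of all promoters is 58.0%. These matches describe the letters of the windows and do not show binding.

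PLSCR1 (ENSG00000188313), which supports the interferon response and blocks entry of several viruses, was at 40.8, 44.9 and 46.2 CPM in siCTRL and at 313, 234 and 321 CPM in siMic60 libraries. Every siMic60 library was at least 5 times above every siCTRL library, with replicate 2 the lowest of its group. The fold was 6.59 (95% interval 5.33 to 8.15, log2 fold change 2.72, standard error 0.14, adjusted p = 3.33e-09, edgeR), the 96th largest increase by rank.

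PLSCR4 (ENSG00000114698), a plasma membrane relative encoded close to PLSCR1, had the largest fold of the 8 genes and had the lowest mean control level of those called, with a range that overlapped that of APOL3. Its 6, 20 and 12 counts in siCTRL became 134, 128 and 160 in siMic60 libraries, or 0.719, 2.50 and 1.48 against 20.5, 15.7 and 18.4 CPM. The siCTRL libraries spread widely, replicate 1 being the lowest and replicate 2 the highest, whereas the siMic60 libraries were close together. PLSCR4 rose 11.6-fold (95% interval 7.32 to 18.3, adjusted p = 7.07e-07, edgeR), the 42nd largest increase by rank among 14653 genes.

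PLSCR3 (ENSG00000187838), the mitochondrial scramblase, was the most abundant of the 8 genes in control cells, at 163, 121 and 150.0 CPM, and measured 116, 113 and 116 CPM in siMic60 cells. The siMic60 libraries were nearly identical and all lay under the lowest siCTRL library, replicate 2. The difference did not pass the test (fold 0.792, 95% interval 0.656 to 0.957 unadjusted for the number of genes, adjusted p = 0.0532, edgeR). It passed without siCTRL replicate 2 (log2 fold change −0.46, adjusted p = 0.0206), with DESeq2 (−0.33, adjusted p = 0.0438), with library totals in place of TMM (−0.39, adjusted p = 0.0238) and with a minimum of 50 counts (−0.35, adjusted p = 0.0364), and was lower without passing in the other 10 alternatives. In GENCODE 29, 85.6% of the 50-base words at the 3′ end of PLSCR3 also belong to the readthrough gene TMEM256-PLSCR3, which had 0 counts in every library. Reads from there cannot be told apart between these 2 genes. Summing the 2 rows, 1 of the 10 alternatives without a pass, could therefore not change the result. TNK1 overlaps PLSCR3 on the other strand, at 44 to 63 counts per library in both groups.

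The unlisted members of the family were scarce. PLSCR2 had 5, 2 and 1 counts in siCTRL and 0, 1 and 7 counts in siMic60 libraries, and PLSCR5 had 0 counts in siCTRL and 3 counts in siMic60 cells, all 3 of them in replicate 3. Neither could be tested.

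The make-up of the scramblase family differed between the groups. PLSCR1 supplied 19.9%, 26.7% and 23.4% of the counts of the 3 listed genes in siCTRL and 69.7%, 64.6% and 70.6% in siMic60 libraries. PLSCR3 supplied 75.8% ± 3.99 in control and 27.4% ± 3.17 in silenced cells (SD, n = 3), and PLSCR4 0.863% ± 0.578 and 4.31% ± 0.258. The groups did not overlap for any of the 3 shares (exact permutation test, two-sided, p = 0.1 for each, the smallest possible). In terms of single libraries, there were 0.249, 0.372 and 0.308 PLSCR1 counts for each PLSCR3 count in siCTRL and 2.70, 2.08 and 2.78 in siMic60 cells. Summed over the 3 genes, the level was 190.2 ± 19.6 CPM in control and 423 ± 52.0 CPM in silenced cells (SD, n = 3), a ratio of 2.22.

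**Figure D3:**
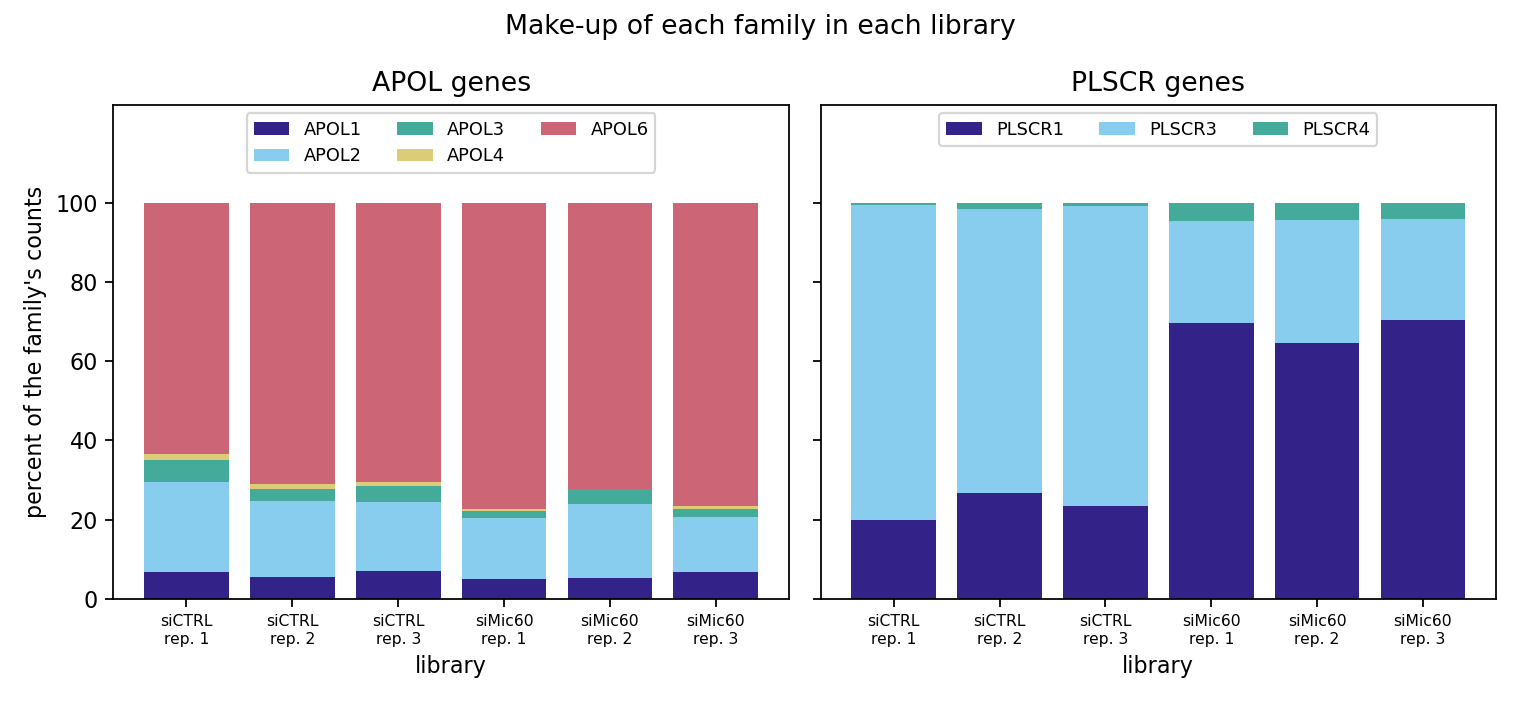
Percent of each family's counts supplied by each listed gene, 1 stacked bar per library, for APOL (left) and PLSCR (right). PLSCR1 grows from 19.9% to 26.7% in the siCTRL bars to 64.6% to 70.6% in the siMic60 bars, while APOL6 is the largest part of every APOL bar.

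The order of the levels changed accordingly. In siCTRL cells it ran PLSCR3, PLSCR1, APOL6, APOL2, APOL1, APOL3, PLSCR4 and APOL4, and in siMic60 cells PLSCR1, APOL6, PLSCR3, APOL2, PLSCR4, APOL1, APOL3 and APOL4. Neighbors in these orders had separate ranges over the 3 libraries, except for APOL3 and PLSCR4 and for PLSCR4 and APOL4 in siCTRL cells, whose ranges overlapped. PLSCR1 and APOL6 stood at 1.34 ± 0.132 PLSCR1 counts per APOL6 count in control and 1.65 ± 0.186 in silenced cells (SD, n = 3; exact permutation p = 0.1 on the log ratio, the smallest possible).

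The genes around the members were compared next, since the APOL genes lie in a cluster, as do PLSCR1 and PLSCR4. PLSCR3 lies apart from them. On chromosome 22, RBFOX2, which sits between APOL6 and the other listed APOL genes, measured 143 ± 2.47 CPM in control and 135 ± 2.45 CPM in silenced cells (SD, n = 3) and did not pass the test (adjusted p = 0.579, edgeR). Of 9 tested protein-coding neighbors of this cluster, 2 rose and 2 fell, with a median log2 fold change of −0.09. HMOX1, which encodes heme oxygenase, rose 6.11-fold and MCM5, a replication licensing factor, 1.66-fold, while MYH9, the nonmuscle myosin gene next to APOL1, was at 0.806 times and MB, which encodes myoglobin, at 0.474 times the control level. Next to PLSCR1 and PLSCR4 on chromosome 3, PLOD2, a collagen lysyl hydroxylase, rose 2.80-fold and U2SURP, a splicing factor, 1.32-fold, and CHST2, a sulfotransferase, fell to 0.247 times the control level, among 4 neighbors tested. Next to PLSCR3 on chromosome 17, 2 of 5 tested neighbors fell, TMEM256 from 23.8 to 12.3 CPM (fold 0.520, adjusted p = 0.00215, edgeR) and NLGN2 to 0.733 times, and 0 rose (0 at an unadjusted p under 0.05 in edgeR). Over all tested genes, 17.7% were called higher and 17.9% lower, and nothing is read from the neighbors' counts.

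Scramblases act beside flippases, the P4-ATPases that carry phosphatidylserine and other lipids back to the cytoplasmic leaflet, most of them with a CDC50 subunit. Of 14 tested flippase and CDC50 genes, 6 rose and 4 fell, with a median log2 fold change of −0.08. The shares over all tested genes were 17.7% called higher and 17.9% called lower. ATP10A, a phosphatidylcholine flippase of the plasma membrane, went from 0.839, 1.00 and 0.616 CPM in siCTRL to 7.21, 7.22 and 6.92 CPM in siMic60 libraries (8.55-fold, adjusted p = 6.59e-06, edgeR). With 7, 8 and 5 counts in siCTRL, it reached the minimum count only through its siMic60 libraries, as did ATP10D, another gene of the 6. ATP9A, an endosomal member that works without a CDC50 subunit, went the other way, from 226, 141 and 131 CPM to 27.8, 41.9 and 29.2 CPM (fold 0.199, adjusted p = 8.34e-07, edgeR). Both CDC50 genes fell, TMEM30A to 0.634 times (adjusted p = 5.78e-04, edgeR) and TMEM30B to 0.405 times the control level (adjusted p = 3.39e-04, edgeR). ATP11A, a phosphatidylserine flippase of the plasma membrane that needs TMEM30A and is named after its values were seen, rose 1.97-fold. The number that rose was 3 without siMic60 replicate 1, without siMic60 replicate 3 or with a minimum of 50 counts. In each of these settings ATP10A no longer reached the minimum count and was not tested.

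Of 13 tested genes of other scramblases and their partners, 6 rose and 1 fell, with a median log2 fold change of 0.37. Among all tested genes, 17.7% were called higher and 17.9% lower. XKR8, the scramblase that caspases switch on to expose phosphatidylserine on dying cells, rose from 18.8 ± 2.98 to 31.3 ± 2.12 CPM (SD, n = 3; 1.66-fold, adjusted p = 0.0019, edgeR). Its chaperone subunit BSG (basigin) rose 1.58-fold and the alternative subunit NPTN (neuroplastin) fell to 0.727 times the control level. ANO9, of the anoctamin family, rose 1.95-fold. ANO6, the calcium-activated scramblase and named after its values were seen, measured 29.5 ± 5.43 CPM in control and 38.3 ± 7.63 CPM in silenced cells (SD, n = 3) and did not pass the test (adjusted p = 0.113, edgeR). The number that rose was 3 when siCTRL replicate 1, 2 or 3 was left out. The largest fold among the called genes of this list, that of ANO9, was below those of the 6 members called higher.

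**Figure D4:**
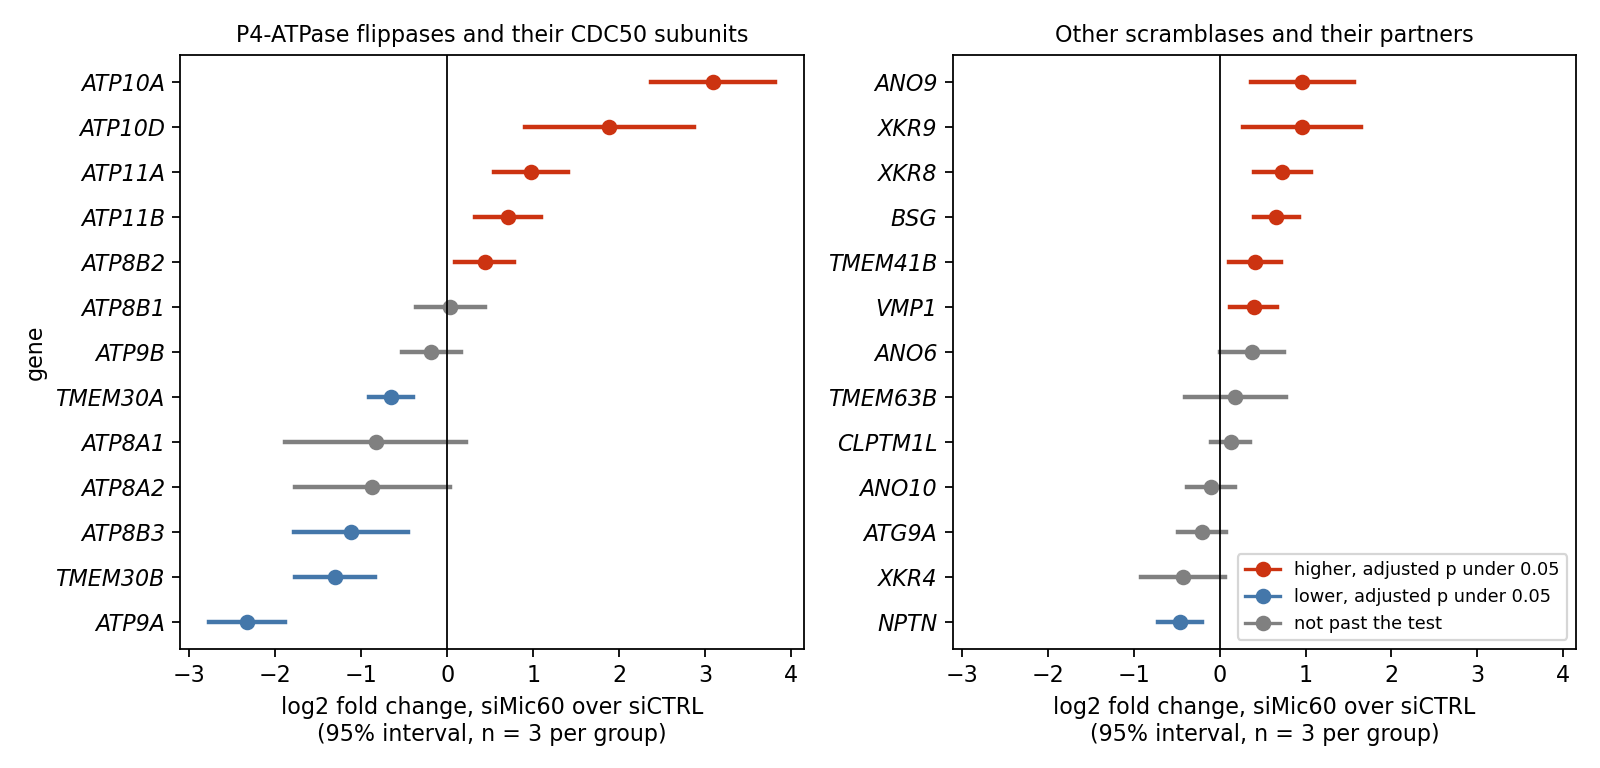
Log2 fold change (siMic60 over siCTRL) with 95% intervals for 13 of the 14 tested flippase and CDC50 genes (left) and 13 other scramblases and partners (right), n = 3 libraries per group, red for higher, blue for lower and grey for not past the test. Flippase genes spread from −2.33 (ATP9A) to 3.10 (ATP10A), and the other scramblases from −0.46 (NPTN) to 0.96 (ANO9).

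PLSCR3 was also set beside a list drawn up for cardiolipin synthesis, remodelling and transport, whose genes need not all act on cardiolipin itself. Of 14 tested genes of this list, 1 rose, LCLAT1, which remodels cardiolipin, at 1.32-fold (adjusted p = 0.0462, edgeR), 0 fell, and the median log2 fold change was −0.08. Over all tested genes, 17.7% were called higher and 17.9% lower. At an unadjusted p under 0.05 in edgeR, 1 gene of the list was lower (STARD7), and DESeq2 called 1 lower. The number that rose was 0 when any 1 of the 6 libraries was left out and in every other fit tried except that with DESeq2's size factors, and 1 gene of the list was called lower without siCTRL replicate 1 or siMic60 replicate 2.

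Other apolipoproteins, which share a name but no descent with the APOL family, were mostly low in PC3 cells, with 6 of 17 tested and 7 at 0 counts in every library. CLU (clusterin, or apolipoprotein J) fell from 195 ± 59.2 to 59.5 ± 9.47 CPM (SD, n = 3 each) and APOD from 1.84 ± 0.330 to 0.350 ± 0.108 CPM (SD, n = 3 each). APOD, with 3, 2 and 3 counts in siMic60 cells, reached the minimum count only through its siCTRL libraries. APOO, which despite its name is the MICOS subunit MIC26, rose from 10.9 to 16.4 CPM. Of the 6 tested, 1 was called higher and 2 lower, beside 17.7% and 17.9% of all tested genes. The number that fell was 1 when siCTRL replicate 1, 2 or 3 was left out, since APOD then missed the minimum count and was not tested. The number that rose was 0 without siCTRL replicate 2 or siMic60 replicate 2 and 3 without siCTRL replicate 3.

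The factors through which interferon acts were measured in the same libraries. Of 11 tested receptors, kinases and transcription factors, 5 rose and 1 fell, with a median log2 fold change of 0.26. Across all tested genes, 17.7% were called higher and 17.9% lower. STAT2 stood at 68.0 ± 12.5 CPM in control and 232 ± 34.3 CPM in silenced cells (SD, n = 3), a 3.41-fold rise, and IRF1 rose 2.45-fold and IRF9 2.38-fold. The gene that fell was the receptor gene IFNGR2, named after its values were seen, from 157 to 92.3 CPM (fold 0.588). The receptor gene IFNGR1, also named after its values were seen, went the other way, from 2.88 to 6.82 CPM (2.38-fold, adjusted p = 0.0142, edgeR). The number that rose was 4 without siMic60 replicate 2, without siMic60 replicate 3 or with a minimum of 50 counts.

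Finally, genes with the most similar profile were sought by the root mean square difference of log2 CPM over the 6 libraries, each profile centred on its own mean, among 11239 genes of at least 5 CPM. A near profile to APOL1 was N4BP1 (0.104). The 2 nearest were for APOL2 TTPAL (0.061) and SLC25A28 (0.116), for APOL3 MIR503HG (0.163) and FAM47E-STBD1 (0.171), and for APOL6 TMEM62 (0.094) and GNAQ (0.102). For PLSCR1 they were HLA-C (0.102) and HSH2D (0.114), for PLSCR4 GBP1 (0.204) and DDX60L (0.325), and for PLSCR3 TTC28 (0.045) and RPUSD3 (0.047). HLA-C shares reads with other HLA genes and FAM47E-STBD1 with STBD1, so their values are uncertain. The nearest profile to PLSCR4 was farther away than those of the other 6 members, and GBP1, an interferon-induced GTPase, rose 9.84-fold from 24.2 to 238 CPM, from a much higher control level than PLSCR4. With 2 groups of 3, such profiles mostly reflect the size of the group difference.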

How the data were processed

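Poly(A) RNA of PC3 cells (siCTRL and siMic60, n = 3 each) was sequenced from QuantSeq 3′ libraries. The authors deposited whole-number counts per Ensembl gene, without normalization. Per the labels, the submitters' notes name RSEM 1.2.3, DESeq2, hg19 and GRCh37. RSEM estimates counts, so these may be rounded. The sources used here name no aligner, annotation, filter or strand setting. Symbols were matched for 39501 of 57736 rows from current names and for 12800 more from GENCODE 29.

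The members and lists were chosen with earlier results of these data known. edgeR 4.0.16 (R 4.3.3, TMM, quasi-likelihood, minimum of 10 counts in 3 libraries, Benjamini-Hochberg over 14653 genes) was the main test. Intervals are 95% from the standard error. Shares were compared by exact permutation. On simulated counts of this comparison (14420 genes), edgeR called 22 of the 64 genes given a 1.5-fold change, 49 of the 69 given 2-fold and 64 of the 65 given 5-fold, and 11 of 14222 left unchanged. Far fewer genes were changed there than were called in the data, 2587 higher and 2617 lower. The adjusted threshold was therefore stricter in the simulation, and its recovered shares do not carry over directly. Named were all family genes, up to 4 called genes per list by adjusted p, called chromosome neighbors (5 protein-coding genes per side in RefSeq order) and 2 nearest profiles per tested member. Alternatives were DESeq2 1.42.0, limma-trend (limma 3.58.1, prior count 2), DESeq2's size factors, library totals, a replicate block, a minimum of 50 counts or none, each library left out, and PLSCR3 summed with its readthrough. Python 3.11.15 was used for sequences and figures. Some genes that the rule names are counted but not reported here.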

Additional observations from a re-analysis of the deposited data

How the results depend on the processing

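The 6 calls of higher levels were kept under every alternative in which the gene was tested, and no member changed direction. APOL3 was not tested with a minimum of 50 counts, in which 5 members were called higher. Over the alternatives the log2 fold changes ran from 1.95 to 2.18 for APOL1, 1.81 to 2.05 for APOL2, 1.28 to 1.76 for APOL3, 2.33 to 2.50 for APOL6, 2.64 to 2.86 for PLSCR1 and 3.18 to 4.03 for PLSCR4, and the highest adjusted p of these genes was 0.0163 (APOL3 without siMic60 replicate 2). PLSCR3 ran from −0.46 to −0.24, with adjusted p from 0.0206 to 0.154. Summing the readthrough row, which had 0 counts, could not change it. The count of members called lower, 0, was 1 (PLSCR3) with DESeq2, library totals or a minimum of 50 counts, and 0 to 1 with 1 library left out. With 1 library left out, the genes called higher numbered 3 to 4 for other scramblases, 3 to 6 for flippases, 0 to 3 for other apolipoproteins and 0 for cardiolipin genes, and those called lower 1 to 2 for other apolipoproteins and 0 to 1 for cardiolipin genes. With a minimum of 50 counts, 3 flippase genes were higher and 1 other apolipoprotein lower. For cardiolipin genes, 0 were higher with DESeq2, limma-trend, library totals, no minimum count, a minimum of 50 counts or the replicate block, and 1 was lower with DESeq2, limma-trend, library totals or a minimum of 50 counts. APOD no longer reached the minimum count, and was not tested, without any 1 siCTRL library or with a minimum of 50 counts. The same held for ATP10A without any 1 siMic60 library or with a minimum of 50 counts. ATP10D was also not tested with that minimum. The cause of the other shifts was not tested. Same-numbered libraries did not deviate together (correlations −0.10, −0.03 and 0.03). As deviations from means of 3 libraries, these values cannot decide whether the numbers mark pairs. With the replicate block 6 members were higher and 0 lower (PLSCR3 adjusted p = 0.076), and 2384 genes were higher and 2382 lower over all genes. Library totals moved the median log2 fold change of all genes to −0.05. At 3 libraries a group, share tests cannot pass 0.05, and APOL4, PLSCR2 and PLSCR5 were too low to test.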
